A study of Homo sapiens with 6 samples.

Results

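The genes described here are 10 translation initiation factor genes: EIF2S1, EIF2B2, EIF2B5, EIF3B, EIF3J, EIF4E, EIF4EBP2, EIF1AX, EIF5 and EIF5B. They were taken by gene name, and all 10 are among the 1099 genes of the authors' deposited table. RNA came from 6 libraries of human cells, 3 kept for 24 h with F/B extract and 3 kept for the same time with its vehicle, DMSO. By the title of the series the extract was made from Flos Sophorae Immaturus and broccoli seed, and the genotype is given as WT in both groups. The cells are labelled A549, a lung adenocarcinoma line, while the library names begin with AGS, the name of a gastric adenocarcinoma line. Nothing in the labels says whether replicates were separate cultures, so the spread behind every p-value may be technical only.

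Translation of most messenger RNAs starts when the small ribosomal subunit, carrying eIF1A, eIF3 and the complex of eIF2, GTP and initiator tRNA, is brought to the cap by eIF4E and its partners and scans for a start codon. eIF5 then triggers GTP hydrolysis on eIF2, eIF5B joins the large subunit, and eIF2B exchanges GDP for GTP on eIF2 so that it can be used again. Both ends of this cycle are known control points in tumour cells: phosphorylation of the alpha subunit of eIF2 blocks eIF2B, and the 4E-binding proteins, which mTORC1 inactivates, keep eIF4E from its scaffold.

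The table holds the 1099 genes with the smallest p-values among the 11289 that the authors tested (9.74%). Every gene in it, members included, was therefore selected on the comparison of extract with vehicle, and the counts below describe the genes and do not test them as a set. Normalised counts are the deposited estimated counts, rounded and divided by a size factor per library (0.9197 to 1.23) that was recovered from the fold changes of the authors' deposited table. Counts summed over the listed genes ran from 3084338 to 4640117 per library, and the members had 654 to 13134 counts each per library. Of 16 gastrointestinal epithelial markers 4 were listed (VIL1, CDH17, TFF1 and REG4), 25.0% beside 9.74% of all tested genes. Their summed level was 327 to 341 TPM (an abundance per transcript length, scaled to a fixed total per library) in the vehicle libraries and 224 to 256 TPM in the extract libraries. Of 13 lung epithelial markers LAMP3 alone was listed (7.69%), at 19.8 to 20.5 TPM with vehicle and 23.5 to 29.5 TPM with extract. Of 10 fibroblast and endothelial markers COL1A1 alone was listed (10.0%), at 12.8 to 15.8 TPM with vehicle and 10.0 to 14.9 TPM with extract. None of 11 leukocyte markers was listed. The part of these markers in the results below was not tested.

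With extract, 8 of the 10 genes were lower and 2 were higher, where 64.8% and 35.2% of the listed genes were. The differences were small, from -21.0% for EIF2S1 to 17.2% for EIF4EBP2. By edgeR's quasi-likelihood test at an adjusted p of 0.05, EIF2S1, EIF2B5, EIF4E, EIF3J and EIF1AX fell and EIF4EBP2 rose, while EIF2B2, EIF3B, EIF5B and EIF5 did not pass. In the authors' own test the adjusted p was 0.0212 for EIF2B2, 0.00996 for EIF3B, 0.0472 for EIF5B and 0.0251 for EIF5. The table was selected on the p-values of that same test. The 5 of 10 called lower stand beside 52.9% of all listed genes, and the 1 of 10 called higher beside 28.9%. In normalised counts the groups did not overlap for any of the 10 genes, 8 lower and 2 higher, where 63.9% and 34.6% of listed genes did not overlap in these directions. The median log2 fold change was -0.21 over the members and -0.22 over all listed genes.

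**Figure D1:**
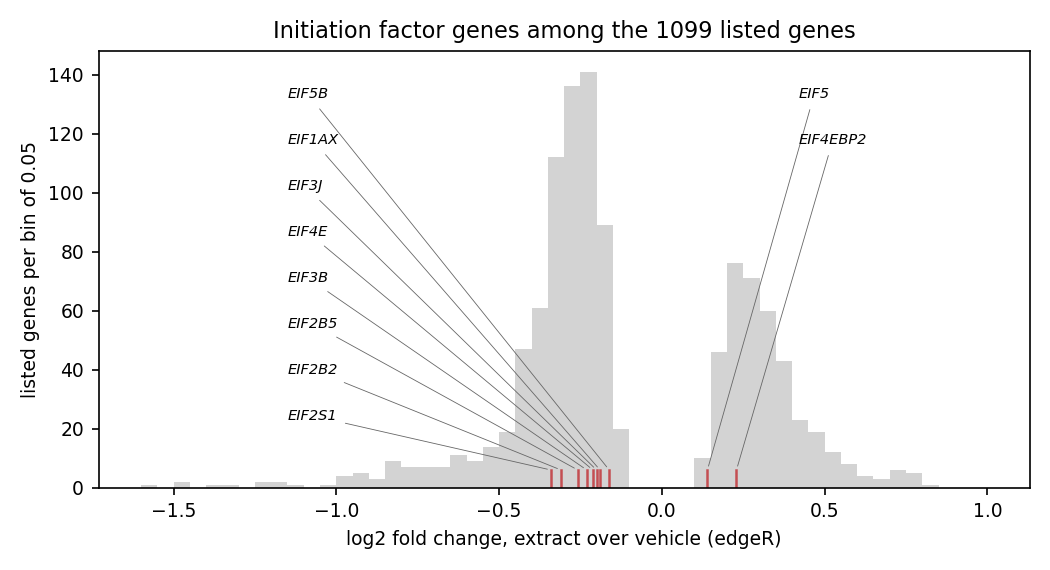
Histogram of the log2 fold change of extract over vehicle for the 1099 listed genes (edgeR, bins of 0.05), with the 10 initiation factor genes as red marks at the foot. The table, selected on this comparison, holds no gene near 0, and the members lie between -0.34 and 0.23.

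As transcript levels, the members spanned more than an order of magnitude. EIF2S1 was highest in the vehicle libraries at 451 ± 22.0 TPM (SD, n = 3), followed by EIF5 at 367 ± 28.7, EIF3B at 177 ± 17.4, EIF1AX at 141 ± 8.51, EIF4E at 140 ± 1.42 and EIF3J at 122 ± 5.09 TPM. EIF2B2 was at 77.9 ± 9.71 TPM, EIF5B at 51.98 ± 2.85, EIF2B5 at 44.1 ± 2.14 and EIF4EBP2, the inhibitor, was lowest at 29.7 ± 0.8002 TPM. In this order EIF1AX and EIF4E did not differ beyond the spread of the 3 libraries, and each other pair of neighbours was without overlap. In the extract libraries the first place changed: EIF5, at 397, 402 and 414 TPM, lay above EIF2S1, at 351, 363 and 366 TPM. At the lower end EIF2B5 (37.5 to 39.8 TPM) and EIF4EBP2 (34.2 to 39.8 TPM) came to overlap.

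**Figure D2:**
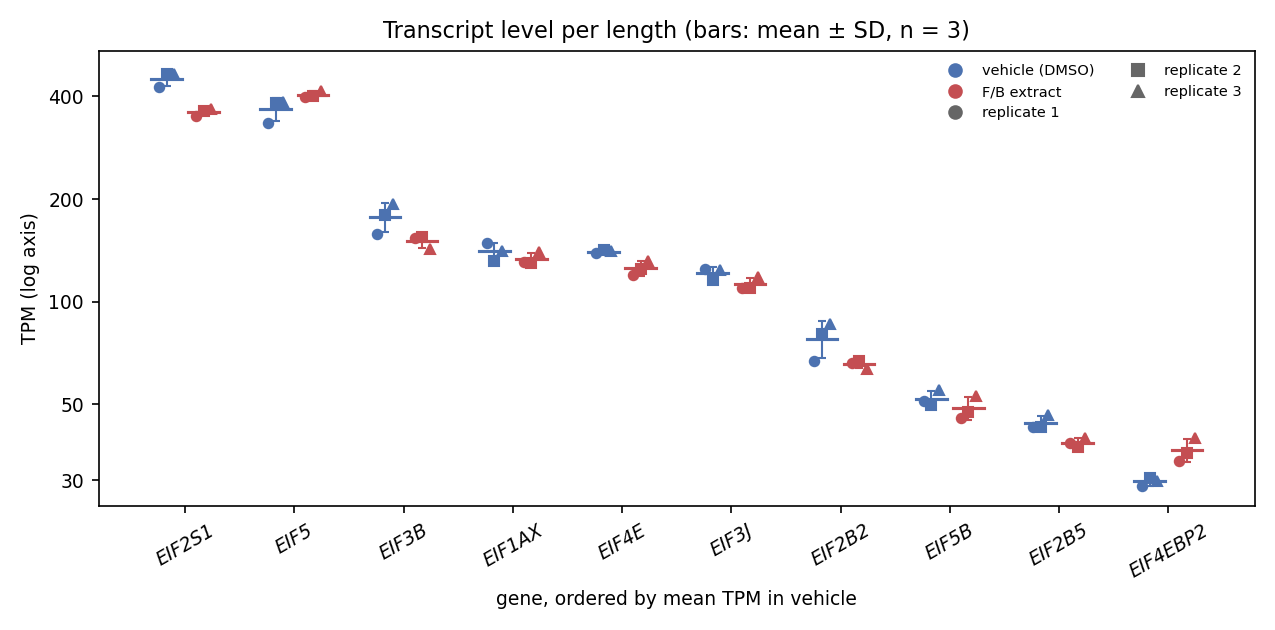
TPM of the 10 genes in each library on a log axis, with mean and SD of 3 libraries per group, vehicle in blue and extract in red. EIF5 moves above EIF2S1 with extract, and EIF4EBP2 moves up to the level of EIF2B5.

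EIF2S1 encodes the alpha subunit of eIF2, the subunit phosphorylated in the integrated stress response (ENSG00000134001, GRCh38 chromosome 14, 67359997 to 67386516). It had 5649, 5689 and 5604 normalised counts in vehicle replicates 1 to 3 and 4298, 4606 and 4488 in extract replicates 1 to 3. All extract libraries lay far below all vehicle libraries, and the vehicle libraries differed little among themselves. The log2 fold change was -0.34 with an SE of 0.04 (edgeR adjusted p = 0.00260), and 33.8% of listed genes changed by more. In the authors' deposited table EIF2S1 stands at rank 43 by p-value, and the other 9 members stand between ranks 393 and 1028. Of the other subunits of eIF2, EIF2S2 and EIF2S3 were not listed, which means that their p-value was larger or that they were not tested. EIF2A, which encodes a separate initiator tRNA-binding protein and no subunit of eIF2, was listed at -0.19 (edgeR adjusted p = 0.0564).

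The exchange factor eIF2B was represented by its beta subunit EIF2B2 and by EIF2B5, the epsilon subunit that carries the catalytic domain. EIF2B5 (ENSG00000145191, chromosome 3, 184135038 to 184146112) had 1222, 1243 and 1296 normalised counts with vehicle and 1082, 1033 and 1032 with extract, a log2 fold change of -0.26 with an SE of 0.05 (edgeR adjusted p = 0.0154). EIF2B2 (ENSG00000119718, chromosome 14, 75002911 to 75012366) had 905, 1016 and 1029 with vehicle and 863, 821 and 699 with extract. Its groups came closest to each other at vehicle replicate 1 and extract replicate 1, and extract replicate 3 was lowest. The log2 fold change of EIF2B2 was -0.31 (SE 0.08), larger than that of EIF2B5, but with its wider spread it did not pass (edgeR adjusted p = 0.0542). The count ratio of EIF2B5 to EIF2B2 within a library was 1.28 ± 0.0653 with vehicle and 1.33 ± 0.127 with extract (SD, n = 3 each), and the groups overlapped (two-sided exact permutation p = 0.7). EIF2B1, EIF2B3 and EIF2B4 were not listed.

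EIF5 encodes the protein that makes eIF2 hydrolyse its GTP (ENSG00000100664, chromosome 14, 103333544 to 103345025). It had 10859, 10639 and 10764 normalised counts with vehicle and 11595, 11626 and 12320 with extract. All extract libraries were above all vehicle libraries, extract replicate 3 the most, with a log2 fold change of 0.14 (SE 0.04) that did not pass (edgeR adjusted p = 0.0799). Of the listed genes 98.8% changed by more than EIF5. The count ratio of EIF2S1 to EIF5, in which the library scale cancels, was 0.520, 0.535 and 0.521 with vehicle and 0.371, 0.396 and 0.364 with extract. It was 0.717-fold as high with extract, and the groups did not overlap. This pair was chosen after its values were seen, so its difference is a description.

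EIF3B and EIF3J belong to eIF3, the complex of many subunits that organises the factors on the small subunit, EIF3B as part of its core and EIF3J as a loosely bound subunit. EIF3J (ENSG00000104131, chromosome 15, 44537057 to 44563029) had 2637, 2467 and 2580 normalised counts with vehicle and 2267, 2127 and 2292 with extract. The distance between the groups was larger than the range within either. The log2 fold change was -0.20 with an SE of 0.05 (edgeR adjusted p = 0.0323). EIF3B (ENSG00000106263, chromosome 7, 2354086 to 2380745) had 5038, 5646 and 5708 with vehicle and 4784, 4883 and 4312 with extract. Here vehicle replicate 1 lay nearer to extract replicates 1 and 2 than to the other vehicle libraries, and the log2 fold change of -0.23 (SE 0.06) did not pass (edgeR adjusted p = 0.0537). The ratio of EIF3B to EIF3J was 2.14 ± 0.1999 with vehicle and 2.10 ± 0.208 with extract, with overlap between the groups (exact permutation p = 0.8). The other 12 eIF3 genes looked for were not listed. EIF3J overlaps SPG11, and EIF3B overlaps SNX8, each on the opposite strand. SNX8 was called higher (0.29) and SPG11 was at 0.26 (edgeR adjusted p = 0.0725), so both partners differed in the opposite direction to the member. Among the members, EIF2S1 (ATP6V1D) and EIF5B (TXNDC9 and REV1) also overlap protein-coding genes on the opposite strand, which were not listed. Whether the authors' counting used strand is not given in the sources used here.

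EIF1AX encodes eIF1A, which keeps the scanning subunit open and takes part in the choice of the start codon (ENSG00000173674, chromosome X, 20124518 to 20141844). It had 5940, 5565 and 5700 normalised counts with vehicle and 5028, 4863 and 5193 with extract, a log2 fold change of -0.19 with an SE of 0.04 (edgeR adjusted p = 0.0280). In TPM its groups overlapped, with 149, 132 and 140 TPM with vehicle and 131, 130 and 140 TPM with extract. EIF5B, the GTPase of subunit joining (ENSG00000158417, chromosome 2, 99337353 to 99401326), had 3467, 3389 and 3669 normalised counts with vehicle and 3062, 3097 and 3250 with extract. It was the smallest of the 8 decreases, with a log2 fold change of -0.16 with an SE of 0.05 (edgeR adjusted p = 0.0696), and its TPM values overlapped too, at 49.7 to 55.2 and 45.8 to 52.96. EIF3J was the third gene with overlap in TPM. In that unit 5 of the 10 genes were lower without overlap, beside 44.2% of listed genes, and 2 were higher without overlap, beside 32.2%. Named pseudogene copies exist for EIF1AX (2), EIF5 (2), EIF4EBP2 (3) and EIF4E (5) in GENCODE 29, and reads shared with such copies make these 4 genes less certain.

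EIF4E encodes the protein that binds the cap of the messenger RNA (ENSG00000151247, chromosome 4, 98871684 to 98930637), and EIF4EBP2 encodes one of the small proteins that hold it inactive (ENSG00000148730, chromosome 10, 70404379 to 70428618). EIF4E had 2888, 2893 and 2947 normalised counts with vehicle and 2581, 2430 and 2527 with extract. The vehicle libraries lay close together, and every extract library was below all of them. The log2 fold change was -0.21 with an SE of 0.04 (edgeR adjusted p = 0.0162). EIF4EBP2 had 2650, 2831 and 2715 normalised counts with vehicle and 3108, 3176 and 3326 with extract. All extract libraries were above all vehicle libraries, with a log2 fold change of 0.23 with an SE of 0.05 (edgeR adjusted p = 0.0167). EIF4EBP1, EIF4EBP3 and the other partners at the cap looked for (EIF4A1, EIF4A2, EIF4B, EIF4G1, EIF4G2, EIF4G3, EIF4H, EIF4E2 and EIF4E3) were not listed.

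**Figure D3:**
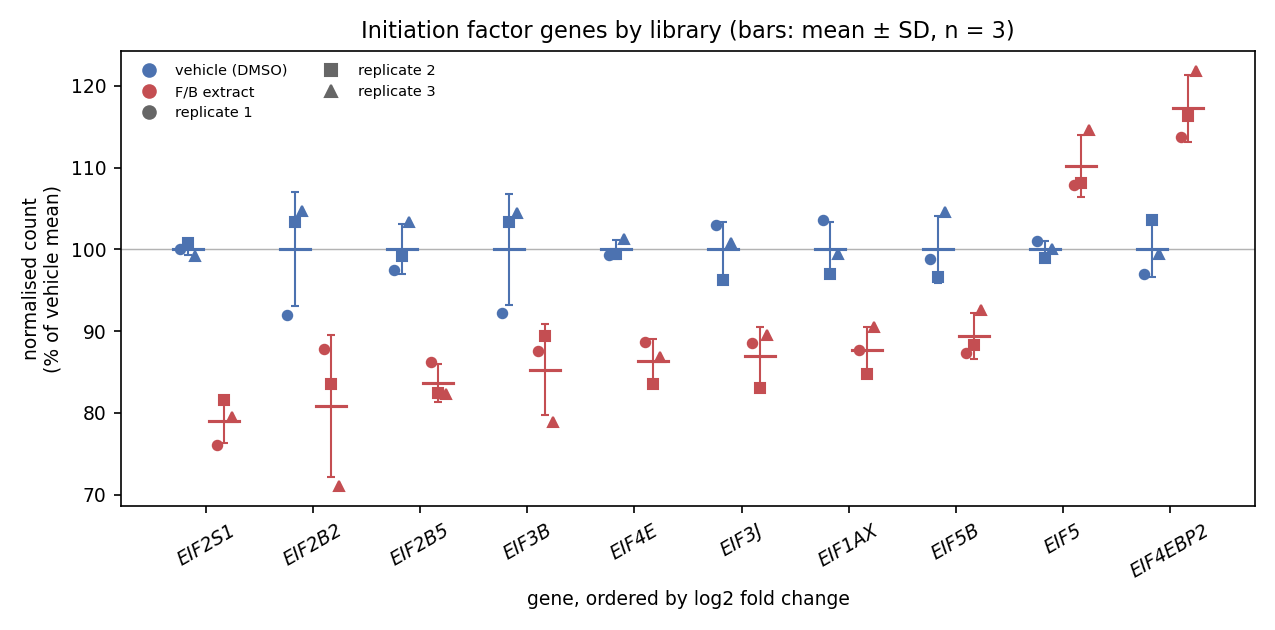
Normalised count of each gene in each library, as a percentage of the mean of the 3 vehicle libraries, with mean and SD per group. The first 8 genes are lower in every extract library than in any vehicle library, and EIF5 and EIF4EBP2 are higher in every extract library.

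Because cap-binding protein and inhibitor moved in opposite directions, their ratio changed by more than either gene. The count ratio of EIF4E to EIF4EBP2 was 1.09, 1.02 and 1.09 in vehicle replicates 1 to 3 and 0.831, 0.765 and 0.760 in extract replicates 1 to 3. The difference was -0.44 on the log2 scale, 0.737-fold, and the groups did not overlap. Per transcript length, there were 4.64 to 4.80 EIF4E transcripts for each EIF4EBP2 transcript with vehicle and 3.31 to 3.49 with extract. The library scale cancels in these ratios, so they are the same under any scale.

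A ratio to EIF4EBP2 was formed for all 9 other members, EIF4E included. EIF4EBP2 had the highest log2 fold change of the 10 genes, so the direction of all 9 ratios was fixed by its choice, and the values are a description. In counts the groups did not overlap in any of the 9. The largest decrease was that of EIF2S1, from 2.07 ± 0.0611 to 1.39 ± 0.0513 (SD, n = 3 each) or 0.674-fold. The change lay between 0.688-fold for EIF2B2 and 0.763-fold for EIF5B in the next 7 genes. EIF5, which was higher itself, kept 0.939-fold of its ratio, and with TPM in place of counts its groups overlapped. The 9 ratios share the values of EIF4EBP2 and are not independent of each other.

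**Figure D4:**
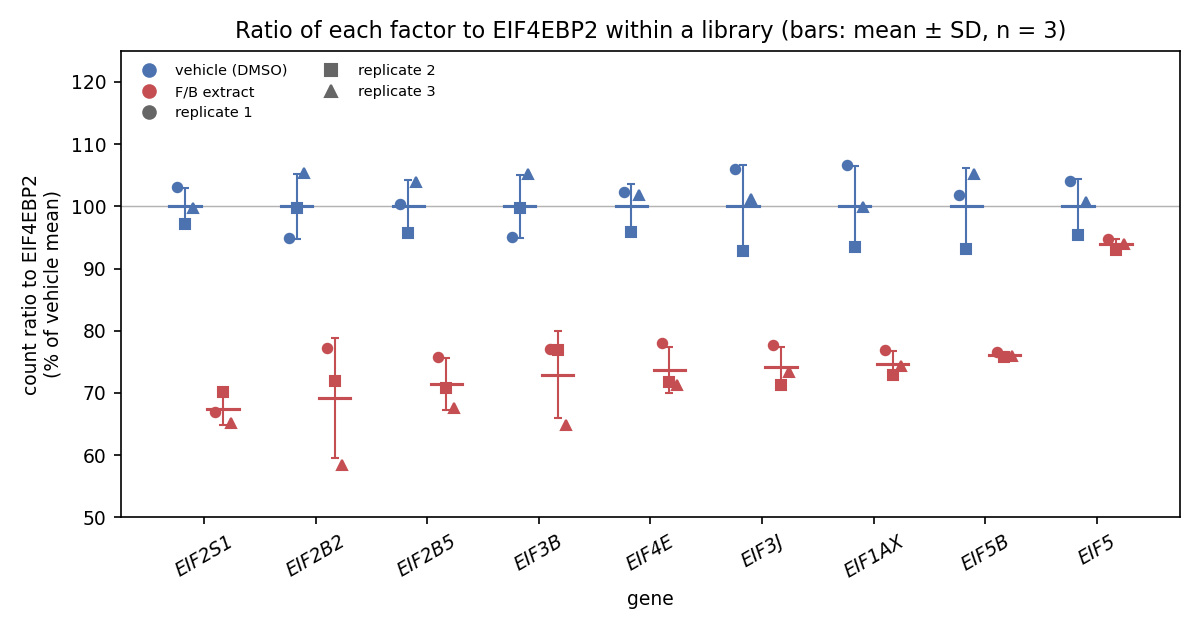
Ratio of the count of each gene to the count of EIF4EBP2 in the same library, as a percentage of the mean vehicle ratio, with mean and SD of 3 libraries per group (the axis starts at 50%). Extract libraries lie below vehicle libraries for all 9 genes, with the smallest distance for EIF5.

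Among the 8 lower genes the differences in size were small. Taken in the order of their log2 fold changes, no gene differed from its neighbour beyond the spread of their ratio, and of the 9 neighbouring pairs among the 10 genes only EIF5B with EIF5 and EIF5 with EIF4EBP2 were without overlap. The outer genes of the order did separate: the count ratio of EIF2S1 to EIF5B was 1.63, 1.68 and 1.53 with vehicle and 1.40, 1.49 and 1.38 with extract, a pair chosen after its values were seen. The ratio of EIF2S1 to EIF2B5, the factor and its exchange enzyme, was 4.51 ± 0.161 with vehicle and 4.26 ± 0.254 with extract, with overlap in counts (exact permutation p = 0.3). With TPM in place of counts it was 9.94, 10.8 and 9.96 with vehicle and 9.11, 9.68 and 9.20 with extract, without overlap (exact permutation p = 0.1, the smallest that 3 libraries against 3 allow), so its difference depended on the unit.

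The calls, and among members the direction of EIF5B, depended on the library scale. Other scales were taken from the TPM values, or from the listed genes as sums, TMM factors or DESeq2's own factors. The median upward shift of the log2 fold change over all listed genes was 0.08, 0.14, 0.15 and 0.17. The scales from the listed genes are centred on genes selected on this comparison, 64.8% of them lower with extract, so an upward shift is built into them. On these 4 scales EIF4EBP2 and EIF5 were both called higher, EIF4EBP2 at 0.31 to 0.40. EIF2S1 remained called lower on 3 of them, and on the scale of DESeq2's own factors it was at -0.16 (edgeR adjusted p = 0.112). EIF2B5, EIF4E, EIF3J and EIF1AX were not called on any of these 4 scales, and EIF5B stood at 0.01 on the scale of DESeq2's own factors. When any of vehicle replicates 2 and 3 or extract replicate 2 was left out, EIF2S1 was the only member called by edgeR, each time with 8 lower and 2 higher at an unadjusted p under 0.05. Every listed gene had a p of at most 0.00535 in the authors' comparison. With the authors' size factors an unadjusted p under 0.05 was therefore largely given by the selection, here and below.

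**Figure D5:**
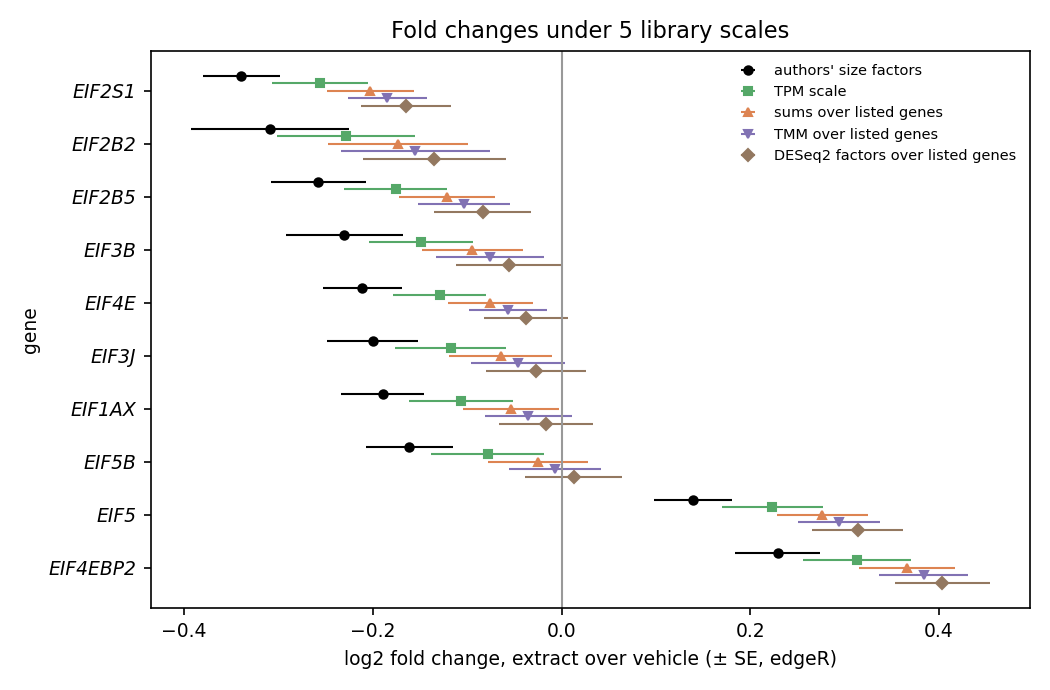
Log2 fold change of extract over vehicle with its SE (edgeR) for each gene under 5 library scales, the size factors implied by the authors' fold changes in black and the 4 other scales in colour. Every gene shifts to the right by nearly the same amount, EIF2S1 stays at or below -0.16, and EIF5B reaches 0.01 on the scale of DESeq2's own factors.

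The promoters of these genes were read from RefSeq (GRCh38.p14), in windows of 250 bases before to 50 bases after the start. All 10 genes had an entry, EIF5 with 2 starts. EIF4E is shown because its window held the sequence CACGTG, the E-box bound by MYC and MAX, in 2 places, with first bases at -225 and -72 relative to the start, and no other member's window held it. EIF4EBP2, the gene that rose, and EIF2S1, the largest decrease, are shown for comparison. Each sequence ends at the last base before the start, and capitals mark CACGTG and TGCGCA.
EIF4E, chr4:98929134-98929373, minus strand: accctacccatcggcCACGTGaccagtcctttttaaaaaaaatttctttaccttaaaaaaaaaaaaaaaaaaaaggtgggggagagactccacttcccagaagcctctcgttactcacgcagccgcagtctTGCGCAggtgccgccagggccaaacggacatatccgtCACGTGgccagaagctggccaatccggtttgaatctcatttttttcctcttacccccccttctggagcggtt
EIF2S1, chr14:67360178-67360327, plus strand: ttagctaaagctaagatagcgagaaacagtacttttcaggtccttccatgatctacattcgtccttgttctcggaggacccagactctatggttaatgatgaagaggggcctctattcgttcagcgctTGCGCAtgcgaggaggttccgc
EIF4EBP2, chr10:70403995-70404144, plus strand: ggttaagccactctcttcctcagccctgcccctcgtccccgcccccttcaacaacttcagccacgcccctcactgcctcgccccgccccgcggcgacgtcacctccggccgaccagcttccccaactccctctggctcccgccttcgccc

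Of all 35116 promoter windows 7.26% held CACGTG, and of the 1256 windows of listed genes 11.2% did. The other motifs were also looked for on both strands. CCGGAAGT, the ETS motif, was in EIF2B2 (4.14% of all windows and 7.64% of those of listed genes). GCCATNTTG, the YY1 motif, was in EIF3B and EIF5 (2.92% and 5.18%). The NRF1 motif (1.24% and 1.59%) and a palindrome of 10 bases, not printed here (0.424% and 0.876%), were in no member. The NRF1 motif was looked for only as an exact sequence of 10 bases, so near matches were not counted. TGCGCA, a shorter sequence found in the NRF1 consensus, was added after the sequences were seen. It was present in 5 of the 11 member windows (EIF2S1, EIF2B5, EIF4E, EIF1AX and EIF5B), in 8.24% of all windows and in 12.7% of those of listed genes. The other 5 members, EIF2B2, EIF3B and EIF3J among the lower and EIF5 and EIF4EBP2 among the higher, had neither CACGTG nor TGCGCA in their windows. These are matches of letters and were set beside no measurement of binding.

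Other initiation factors were read from a list of 48 genes that holds the 10 members. Of the 38 others, 3 were listed (7.89%, beside 9.74% of all tested genes). With the members, which were taken from the table, 13 of the 48 were listed, 10 lower and 3 higher, of which 6 and 2 were called, and the median was -0.20. Besides the members and EIF2A these were EIF6, which keeps the large subunit from joining too early and takes part in its biogenesis, and PABPC1, the poly(A)-binding protein. EIF6 had a log2 fold change of -0.30 with an SE of 0.08 (edgeR adjusted p = 0.0414). PABPC1 rose by 0.21 (SE 0.05, edgeR adjusted p = 0.0269), with 640 to 657 TPM in the vehicle libraries and 721 to 827 TPM in the extract libraries. PABPC1 thus stood with EIF4EBP2 and EIF5 among the 3 higher genes of the list. On the other library scales EIF6 was at -0.22 to -0.12 and was not called, while PABPC1 remained called. Neither was called by limma on the TPM values, with the replicate block, or without vehicle replicate 2 or 3 or extract replicate 2 or 3. In these edgeR fits all 10 lower and 3 higher factors had an unadjusted p under 0.05.

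Of 29 regulators of initiation 2 were listed (6.9%, beside 9.74% of tested genes). Both were called higher, beside 28.9% of listed genes. edgeR called 0 of them when vehicle replicate 2, vehicle replicate 3, extract replicate 2 or extract replicate 3 was left out and with the replicate block, and limma on the TPM values called 0 (2 at an unadjusted p under 0.05 each time). PDCD4, an inhibitor of the helicase eIF4A, had 37.4 to 44.3 TPM with vehicle and 47.2 to 55.8 TPM with extract, a log2 fold change of 0.30 with an SE of 0.08 (edgeR adjusted p = 0.0434). EIF2AK2, the kinase PKR, which phosphorylates the alpha subunit of eIF2 and is induced by interferon, had 42.1 to 47.1 TPM and 49.3 to 60.6 TPM, a log2 fold change of 0.29 with an SE of 0.07 (edgeR adjusted p = 0.0359). The other eIF2 kinases looked for (EIF2AK1, EIF2AK3 and EIF2AK4) and MTOR, RPTOR and RPS6KB1 were not listed. Of 20 targets of the integrated stress response 2 were listed (10.0%, beside 9.74% of tested genes), CEBPB at 0.42 and SLC7A11 at 0.20, both called higher beside the same 28.9%. edgeR called 0 of them without vehicle replicate 2 (2 at an unadjusted p under 0.05) and 1 in the blocked fit and when either extract replicate 2 or vehicle replicate 3 was left out. limma on the TPM values called 1. ATF4, DDIT3 and ASNS, central genes of that response, were not listed.

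Of 16 elongation and termination factors 4 were listed (25.0%, beside 9.74% of tested genes). All 4 were called lower, beside 52.9% of listed genes. edgeR called 0 of them on the scales from sums, TMM and DESeq2's own factors, as did limma on the TPM values (2 at an unadjusted p under 0.05 each time). It called 2 on the TPM scale, 2 with the replicate block and 1 to 3 with 1 library left out, the 1 without vehicle replicate 2. ABCE1, which splits ribosomes after termination and returns subunits to initiation, had a log2 fold change of -0.30 with an SE of 0.04 (edgeR adjusted p = 0.00378). EEF1E1, which is in this list although it is a scaffold protein of the tRNA synthetase complex, was at -0.37. The exchange factor EEF1B2 was at -0.18 and the release factor ETF1 at -0.15. The last of these stood at 0.01 with TMM and at 0.03 with DESeq2's own factors. Of 22 genes of cytosolic tRNA synthetases 2 were listed (9.09%), FARSA at -0.26 and NARS1 at -0.14. edgeR called 0 of them, with 2 at an unadjusted p under 0.05, while DESeq2 called 2. None of 10 mitochondrial translation factors was listed.

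The genes whose values over the 6 libraries were nearest to the mean profile of the 9 members other than EIF4EBP2 were PUM3, CNBP, NSUN2, METAP1 and MAX. The 9 include EIF5, which was higher with extract, so the mean profile joins it with the lower members, and the nearest genes depend on this choice. Nearness was the root mean square difference of log2 normalised counts, each gene centred on its vehicle mean, and it was 0.0080 for PUM3, 0.011 for CNBP and 0.019 to 0.020 for the other 3, among 1020 candidate genes. PUM3 and CNBP encode RNA-binding proteins, NSUN2 an RNA methyltransferase, METAP1 an aminopeptidase that removes the initiator methionine, and MAX the partner of MYC. All 5 were called lower, at -0.20 to -0.19, beside 52.9% of listed genes. They were picked for nearness to a profile that is lower with extract, so this direction and size were fixed by the choice. The mean profile itself was -0.02, -0.01 and 0.03 in the vehicle libraries and -0.18, -0.20 and -0.21 in the extract libraries.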

How the data were processed

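Poly(A) RNA was sequenced from 6 libraries, 3 per group. The authors deposited estimated counts and TPM per gene and library, with decimals in 31.8% to 35.9% of the counts per library, and a comparison given as fold change (ratio), log2 fold change, p-value and adjusted p-value. Per the submitters' processing notes, the build was GRCh38.p13. Aligner, counter and annotation are not given in the sources. The authors' log2 values compare vehicle with extract, so their signs were turned: all directions here are extract over vehicle.

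The p-values and adjusted p-values of the authors' deposited table follow the Benjamini-Hochberg relation for 11289 genes, of which the 1099 listed have the smallest p-values (largest 0.00535). Size factors were fitted so that DESeq2-type fold changes equal the deposited ones (median absolute log2 difference 6.48e-05). Rounded counts were tested with edgeR 4.0.16 (quasi-likelihood, R 4.3.3), adjusted over 11289 genes, with the threshold at 0.05. Only the 1099 listed genes could be ranked in this adjustment. Unlisted genes with an equally small edgeR p would not be counted, which would make adjusted p-values too large. The low-count filter removed 0 genes, so all 10 members passed. The spread was estimated from genes selected on small p-values, so p-values may be too small. Exact permutation tests used scipy 1.17.1. DESeq2 1.42.0 and limma 3.58.1 were alternatives.

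Members and gene lists were chosen with earlier results of these data known. Named genes are the members, the listed genes of the initiation and regulator lists, up to 3 per other list by p-value, and the 5 nearest profiles (mean of at least 5 TPM). EEF1B2, REG4 and the overlapping genes SNX8 and SPG11 were named beyond that rule, after their values were seen. Gene positions are from GENCODE 29 (GRCh38).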

Additional observations from a re-analysis of the deposited data

How the results depend on the processing

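Over 17 other settings, the 8 lower and 2 higher members kept their direction except EIF5B, at 0.013 on the scale of DESeq2's own factors. On that scale ETF1 was at 0.027 and NARS1 at 0.037, and on the TMM scale they were at 0.0079 and 0.018. For the scales from TPM, from sums, from TMM and from DESeq2's own factors, in this order, 214, 126, 87 and 86 listed genes were called lower, in place of 581, and 371, 386, 385 and 387 higher, in place of 318, so that most calls were then higher. Of members 1, 1, 1 and 0 were called lower in place of 5 (5, 3, 1 and 1 at an unadjusted p under 0.05), and 2 higher on each of these scales in place of 1. Of the 48 initiation factors 1, 1, 1 and 0 were called lower in place of 6. limma on log2(TPM + 1) and log2(TPM + 0.1) called 75 and 73 listed genes lower and 114 and 115 higher (in place of 318), and 1 member and 1 initiation factor lower and 0 higher, with 2 members and 3 factors higher at an unadjusted p under 0.05. DESeq2 called 689 listed genes lower and 371 higher. Adjustment over the 1099 genes alone called 712 lower and 387 higher, which is every listed gene, so its calls of members followed from the setting. Each of these 2 settings called 8 members lower and 2 higher, and 10 initiation factors lower. The replicate block called 232 listed genes lower and 90 higher, and of members 1 lower and 0 higher by edgeR (8 and 2 at an unadjusted p under 0.05), with 1 and 0 initiation factors. Same-numbered libraries did not deviate together (correlations across genes of -0.231, -0.01 and -0.03), and no library correlated best with its own number, so the numbers were not taken as pairs. The log2 difference in the ratio of EIF4E to EIF4EBP2 was -0.39, -0.42 and -0.51 within replicate numbers 1 to 3. Their mean is -0.44 by arithmetic and is no separate check. With TPM the difference was -0.47. Leaving out 1 library in turn gave 128 to 570 listed genes lower and 50 to 287 higher, 1 to 7 members lower and 0 to 1 higher, 1 to 8 initiation factors lower and 0 to 2 higher, and -0.48 to -0.42 for the ratio. The voom fit was chosen after seeing the data and called 6 members lower. EIF2B2, the member with the fewest counts (654 to 1254 per library), had the largest SE, 0.084.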
